A study of Mus musculus with 24 samples.

Results

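This comparison followed the RNA of Casp2-depleted cardiomyocyte (CM) nuclei from postnatal day 7 (P7) to postnatal day 14 (P14). It was defined by genotype and age, and 7 of the 24 libraries of the series belonged to it. These were P7 XMLC2+Casp2fl/fl replicates 1 to 4 and P14 XMLC2+Casp2fl/fl replicates 2 to 4, since the study set P14 replicate 1 aside for low quality. In these mice both Casp2 alleles carry loxP sites and Cre is driven by the cardiac XMLC2 promoter, so that Casp2 is deleted in CMs. The control animals of the same ages carry the floxed alleles without Cre (XMLC2-Casp2fl/fl, 4 libraries at P7 and 3 kept at P14). All mice were on a C57BL/6N background. Nuclei were sorted by PCM1, a centrosomal protein that coats the nuclear envelope of CMs, and each library was a pool of 6 hearts at P7 and of 2 hearts at P14. The RNA was nuclear, was read from its 3′ ends and was counted over whole genes, introns included.

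Caspase-2 is a protease that is activated by the PIDDosome, a complex of PIDD1 and the adaptor RAIDD (gene Cradd). The complex responds to surplus mother centrioles in cells that failed to divide, where ANKRD26 recruits PIDD1. In the days between P7 and P14 mouse CMs leave the cell cycle, most of them with a pair of nuclei, and exchange fetal for adult sarcomere proteins while fatty acid oxidation takes over from glycolysis. Nuclear RNA consists largely of unspliced transcripts and retained noncoding RNAs, so its levels follow transcription and nuclear retention more closely than those of whole cells.

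Casp2 itself could not serve as a check of the genotype, since it was hardly read in any nuclei. The 4 depleted P7 libraries held 5, 3, 0 and 0 reads on Casp2 and the 3 P14 libraries held none, and in control nuclei the level was at most 2.61 CPM at P7 and 0 at P14. CPM here are a gene's reads relative to all reads on genes of the library, scaled for composition by TMM. Summed levels of gene groups are given without that scaling.

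The P14 libraries of depleted nuclei differed from the P7 libraries as a whole. They held 976714 to 1167439 reads on genes against 1452114 to 2924097, and 9428 to 12327 detected genes against 14006 to 17770. The share of uniquely mapped reads outside genes (off-gene share) was 72.2% to 76.1% at P14 and 34.3% to 64.3% at P7. The 1193 olfactory receptor genes, which CMs do not use, took 3031 ± 563 CPM of the reads at P14 (SD, n = 3) and 1221 ± 640 at P7 (n = 4), while 16 CM marker genes fell from 6.41% ± 0.944 to 2.32% ± 0.662 of the reads. In each of these measures the days did not overlap (exact permutation test, two-sided, p = 0.0571, the smallest that 4 against 3 libraries allow), and in control nuclei the off-gene shares were 36.7% to 54.7% at P7 and 63.7% to 75.2% at P14. Day and these library properties cannot be told apart in this design, and neither can fewer transcripts per nucleus and fewer nuclei with them in a bulk measurement. Changes were therefore fitted on a pair of scales, as TMM-scaled CPM and relative to the summed reads of the 16 CM markers. The relative value is not given for every gene below. Among genes without it, no relative fit that left out a library called Nexn, Fgf13, Hopx, Sdha, Cox8a, Kif20b, Mki67, Mcm3 or Mdm4. For Coro6, Lmo7, Eno3 and Rfc1, 1 of 7 such fits did. The markers are Ttn, Ryr2, Actn2, Tnnt2, Tnni3, Myh6, Myl2, Myl3, Actc1, Mybpc3, Nebl, Ldb3, Pln, Atp2a2, Rbm20 and Pcm1, many of them named below. The part of the library properties in the changes was not tested beyond a fit with the off-gene share as a covariate.

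**Figure D1:**
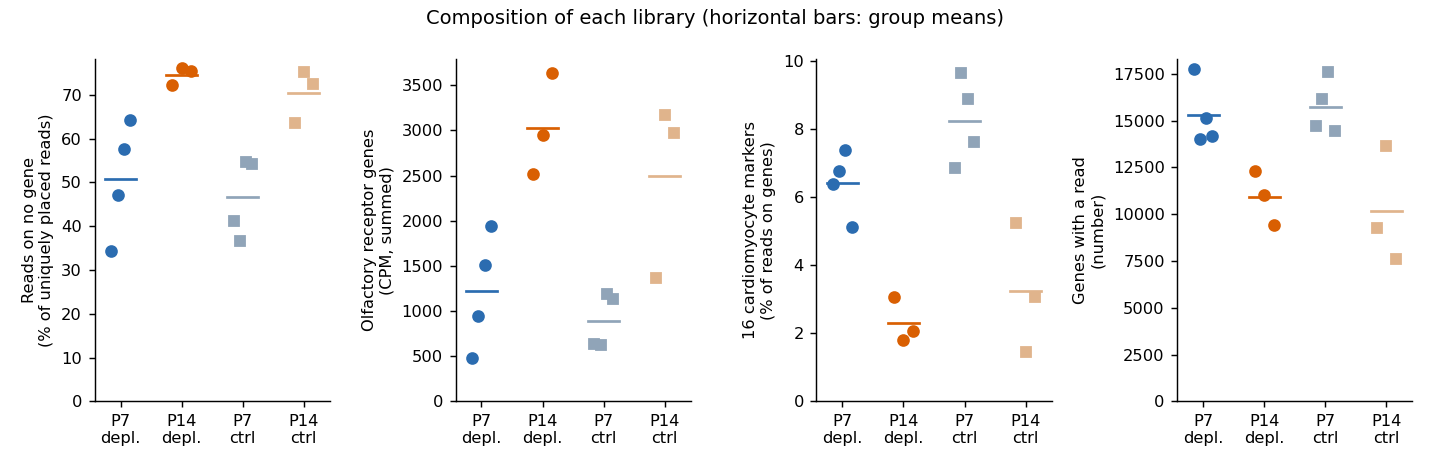
Library properties of the 7 depleted libraries and of the 7 control libraries of the same ages. Each point is a library and each horizontal line a group mean; the panels show the off-gene share of uniquely mapped reads (%), the summed CPM of olfactory receptor genes, the share of reads on genes that fell on the 16 CM markers (%) and the number of detected genes. In the depleted nuclei, the 3 P14 libraries lie above the 4 P7 libraries in the off-gene share (72.2% to 76.1% against 34.3% to 64.3%) and below them in the share on CM markers.

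Of 20368 genes tested, 611 (3% of all tested) fell between P7 and P14 and 2 (0.00982%) rose, at an adjusted p below 0.05 and a fold above 2. P-values came from the quasi-likelihood test of edgeR and were adjusted after Benjamini-Hochberg, and the log2 limit was 1. In 573 of the 611, every P14 library lay below every P7 library, which was the case for 2219 (10.9%) of all genes tested. Of the 611, 144 had no read in any P14 library, as had 25.3% of all genes tested. At P7, 4.89% of all genes tested had no read. A fall to no read is therefore no particular trait of the genes that fell. The reverse order, every P14 library above every P7 library, held for 460 genes (2.26%). The median log2 change of all genes was −0.61 on the CPM scale, 0.00 when only library size was used for scaling, and 1.41 relative to the CM markers, so a gene on the CPM scale has to be read against a shift of all genes. With library size alone 213 genes fell and 89.5% of the calls were falls, against 99.7% with TMM. The number that fell was 405 without P7 replicate 1, 361 without P14 replicate 3 and 306 without P14 replicate 4. With the off-gene share as a covariate it was 127, of which 125 were among the 611. Relative to the CM markers 25 genes (0.123%) fell and 758 (3.72%) rose, and all 25 were among the 611; without P7 replicates 1, 2 or 3 in turn, 10, 12 and 13 fell.

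The clearest fall of a CM gene was that of Ankrd1, which encodes a titin-binding ankyrin repeat protein of the sarcomere that is abundant in the fetal heart and responds to stretch. Ankrd1 was at 3592, 5138, 3848 and 3323 CPM in the 4 P7 libraries and at 129.7, 21.4 and 55.0 CPM in the 3 P14 libraries. All P14 libraries were far below all P7 libraries, a 57.8-fold lower level (log2 −5.85 ± 0.51 SE, edgeR quasi-likelihood adjusted p = 2.83e-26). The fall also held relative to the CM markers (−3.79 ± 0.57, edgeR adjusted p = 2.41e-07), with the off-gene share as a covariate, and without any single library. For every 100 reads on Ttn, a gene of the same sarcomere, there were 17.1 ± 4.78 Ankrd1 reads at P7 and 1.10 ± 0.511 at P14 (exact permutation test, two-sided, p = 0.0571).

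Tnni1, the slow skeletal troponin I that the fetal heart uses, was at 581, 982, 598 and 425 CPM at P7 and at 43.7, 3.15 and 0.655 CPM at P14. The P14 libraries were again all below the P7 libraries but spread over more than an order of magnitude among themselves, with replicate 2 the highest. The fall was 40.8-fold (−5.35 ± 0.69, edgeR adjusted p = 1.09e-11) and held relative to the CM markers (−3.52 ± 0.76, edgeR adjusted p = 0.00127). Its adult counterpart Tnni3, the cardiac troponin I, was at 1515, 1607, 1397 and 881 CPM at P7 and at 83.9, 25.8 and 183 CPM at P14, also a fall (−3.79 ± 0.56, edgeR adjusted p = 1.09e-08) that did not pass relative to the CM markers (−1.39, adjusted p = 0.185). Tnni1 reads per 100 Tnni3 reads were 38.3, 61.1, 42.8 and 48.3 at P7 and 52.1, 12.2 and 0.357 at P14. This ratio was low in P14 replicates 3 and 4 and within the P7 range in replicate 2, and its difference between the days did not exceed the spread (exact permutation test, two-sided, p = 0.229). Tnni1 was the only one of 8 fetal sarcomere isoforms tested to pass. Myh7, the slow myosin heavy chain, was at 101, 46.0, 69.5 and 59.8 CPM at P7 and 69.8, 0 and 23.6 CPM at P14 (−1.15 ± 0.93, edgeR adjusted p = 0.535).

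Of the 8 adult sarcomere isoforms tested, 6 fell (median log2 change −2.62, against −0.61 for all genes), and relative to the CM markers none passed (median −0.37 against 1.41). All of these isoforms but Myom2 are themselves CM markers, so the relative scale cannot show a common fall of them. Tnnt2, cardiac troponin T, was at 11589.7, 21184, 13469.8 and 10654 CPM at P7 and at 3112, 1418 and 2327 CPM at P14, 6.22-fold lower (−2.64 ± 0.29, edgeR adjusted p = 8.85e-16), but −0.37 relative to the CM markers (adjusted p = 0.303). Myh6, the fast adult myosin heavy chain, was at 13378, 11190.1, 13084 and 7608 CPM at P7 and at 2919.9, 1964 and 2191 CPM at P14. Myh6 fell on the CPM scale (−2.26 ± 0.31, edgeR adjusted p = 2.78e-10) and was at 0.05 relative to the CM markers (adjusted p = 0.930). The Myh6 call was lost with the off-gene share as a covariate. Mhrt, a noncoding RNA that is read from the opposite strand across Myh6, fell with it (−2.78 ± 0.28, edgeR adjusted p = 1.93e-19). Their reads overlap in position and the strand setting of the counting is not given in the sources used here, so the levels of both are uncertain. Among the other isoforms the call of Actn2 was lost without P7 replicate 1 or P14 replicate 3, and that of Myom2 was lost without any one of 5 libraries and with replicate number blocked.

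Of 43 further genes of the sarcomere, Z-disc and M-band, 19 fell and none rose (median −2.12, 0.09 relative to the CM markers). The number was 13 without P14 replicate 4 and 6 with the off-gene share as a covariate. Mybpc3, the cardiac myosin-binding protein C, was at 6733, 4602, 5419 and 2620.1 CPM at P7 and at 721, 293 and 309 CPM at P14 (−3.46 ± 0.40, edgeR adjusted p = 1.18e-14). Mybpc3 was at −1.24 relative to the CM markers (adjusted p = 0.0517). Ttn, the giant elastic filament, was at 25949, 25592, 31549 and 15025 CPM at P7 and at 9619, 4191 and 3830.5 CPM at P14. Ttn thus fell on the CPM scale (−2.06 ± 0.25, edgeR adjusted p = 8.65e-13) with no overlap of the days, and was at 0.14 relative to the CM markers, where its sign turned. Coro6, an actin-binding coronin, was at 264, 79.3, 140.3 and 47.8 CPM at P7 and had no read at P14, at least 226-fold lower when 3 reads over the P14 group are taken as the floor. Nexn and Lmo7, actin-binding proteins of the Z-disc and of the cell junctions, fell as well. Of 25 intercalated disc genes 8 fell (median −1.96; 3 without P14 replicate 4), of 38 actin cytoskeleton genes 7 (median −1.32; 3 without P14 replicate 3 and 4 with replicate number blocked) and of 20 dystrophin-glycoprotein genes 1 (median −0.98; none with replicate number blocked). Nexn was at 3789 to 7948 CPM at P7 and at 286 to 812 CPM at P14, and Lmo7 at 1811 to 4625 and at 178 to 344 CPM.

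**Figure D2:**
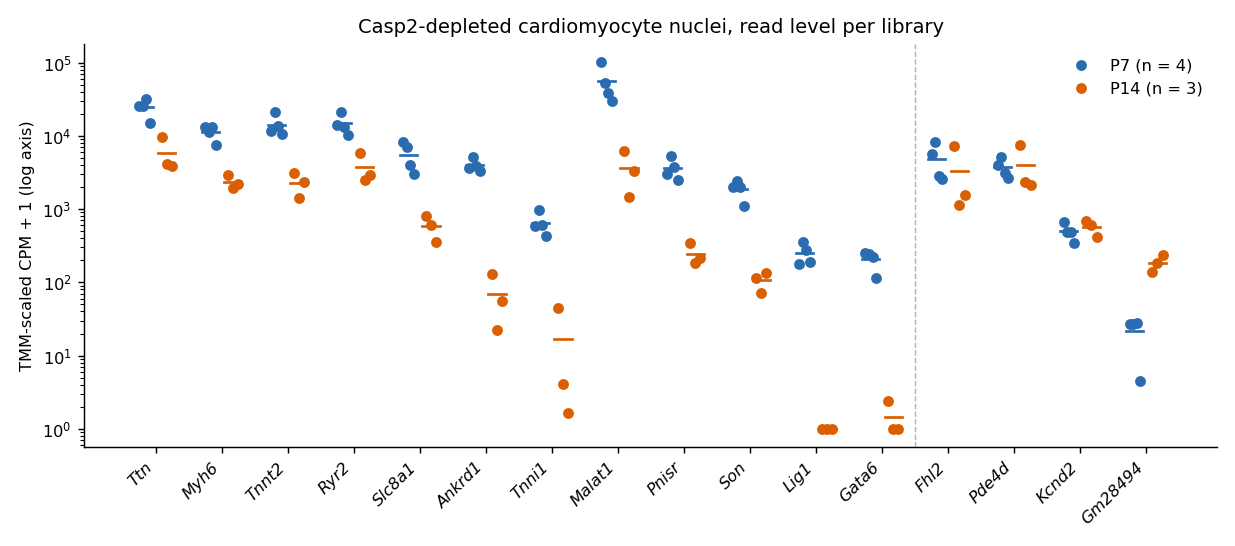
Levels of 16 named genes in each depleted library, as TMM-scaled CPM plus 1 on a log axis. Points are the 4 P7 and the 3 P14 libraries, lines are means, and genes to the left of the dashed line fell on the CPM scale. Ankrd1 lies at 3323 to 5138 CPM at P7 and at 21.4 to 129.7 CPM at P14 in depleted nuclei.

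The stretches of DNA before the RefSeq transcription start are shown for Ankrd1, Tnnt2, Mybpc3 and Ttn. Ankrd1 also fell relative to the CM markers, whereas Tnnt2, Mybpc3 and Ttn are themselves CM markers and did not pass on that scale. Each is 250 bases long, placed on GRCm39 and written 5′ to 3′ along the gene. Capitals mark 3 motifs of factors that act in cardiac muscle, searched on both strands: the M-CAT element CATTCC of the TEAD factors, the MEF2 element CTA, any 4 bases, TAG and the GATA element AGATAA. Ankrd1 lies on chr19:36089352-36097506 (minus strand), Tnnt2 on chr1:135763738-135780315 (plus), Mybpc3 on chr2:90948489-90966861 (plus) and Ttn on chr2:76534136-76812891 (minus). The stretches of Ankrd1 and Tnnt2 lie within these gene bounds, which start further upstream than the RefSeq transcripts.
Ankrd1, chr19:36097245-36097494, minus strand: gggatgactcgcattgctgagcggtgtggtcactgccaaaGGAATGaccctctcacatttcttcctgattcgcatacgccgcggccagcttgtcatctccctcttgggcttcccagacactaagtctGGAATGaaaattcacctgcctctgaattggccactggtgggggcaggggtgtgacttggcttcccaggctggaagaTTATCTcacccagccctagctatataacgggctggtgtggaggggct
Tnnt2, chr1:135763822-135764071, plus strand: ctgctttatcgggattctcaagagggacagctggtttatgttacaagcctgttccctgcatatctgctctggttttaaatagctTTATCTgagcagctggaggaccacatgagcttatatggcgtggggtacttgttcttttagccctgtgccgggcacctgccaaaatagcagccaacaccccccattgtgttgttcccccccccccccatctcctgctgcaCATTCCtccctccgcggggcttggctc
Mybpc3, chr2:90948239-90948488, plus strand: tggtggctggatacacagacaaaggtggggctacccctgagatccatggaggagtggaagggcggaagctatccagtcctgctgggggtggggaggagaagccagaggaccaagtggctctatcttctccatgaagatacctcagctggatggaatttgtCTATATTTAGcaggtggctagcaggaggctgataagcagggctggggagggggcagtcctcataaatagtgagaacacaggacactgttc
Ttn, chr2:76812892-76813141, minus strand: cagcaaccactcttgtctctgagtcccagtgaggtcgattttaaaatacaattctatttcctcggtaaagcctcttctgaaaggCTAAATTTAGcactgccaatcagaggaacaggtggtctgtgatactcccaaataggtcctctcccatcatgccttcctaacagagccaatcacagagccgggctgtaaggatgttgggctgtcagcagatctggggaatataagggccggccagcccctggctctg
The Ankrd1 stretch holds M-CAT on the opposite strand 210 and 123 bases before the start and GATA at 47 bases. The Tnnt2 stretch holds M-CAT at 27 bases and GATA at 166 bases, and those of Mybpc3 and Ttn hold MEF2 at 90 and 166 bases. Of the 25 sarcomere genes that fell, 21 could be matched to RefSeq promoter windows. M-CAT stood in 7 of the 21 and in 5 of 20 other sarcomere genes. It stood in 11.2% of the matched genes that fell, in 11.6% of the matched genes tested and in 12.6% of all promoters. In the same order, MEF2 stood in 5 of 21, 4 of 20, 3.58%, 3.02% and 3.23%. GATA stood in 6 of 21, 2 of 20, 6.11%, 7.4% and 10.3%. These matches describe the letters in the windows and say nothing about binding.

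Of 33 calcium-handling genes 12 fell (median −1.96; 7 without P7 replicate 1), and with the off-gene share as a covariate 1 did. That one was Slc8a1, the sodium-calcium exchanger, at 8172, 7060.2, 3956 and 3026 CPM at P7 and at 809, 610.3 and 352 CPM at P14 (−3.23 ± 0.38, edgeR adjusted p = 7.64e-14). Slc8a1 was at −0.91 relative to the CM markers (adjusted p = 0.103). Ryr2, the calcium release channel of the sarcoplasmic reticulum, was at 10300.5 to 21437 CPM at P7 and at 2531 to 5879 CPM at P14 (−1.97 ± 0.28, edgeR adjusted p = 2.51e-09), and its sign turned relative to the CM markers (0.25). Ryr2 stood at 62.2 ± 18.0 reads per 100 Ttn reads at P7 and at 65.8 ± 8.70 at P14 (exact permutation test, two-sided, p = 0.857). Cacna1c, the pore of the L-type calcium channel, fell by CPM as well (−2.01 ± 0.31, edgeR adjusted p = 5.85e-08). Its sign turned relative to the CM markers (0.05). The turned values of Ryr2 and Cacna1c, like those of Ttn and Rbm20, were below the log2 limit of 1 and are no rises. Ttn, Ryr2 and Rbm20 are also part of the marker sum. Atp2a2, the calcium pump SERCA2, was at 279 to 1027 CPM at P7 and at 71.9 to 228 CPM at P14. Its call (−1.94 ± 0.60, edgeR adjusted p = 0.0413) was lost without P7 replicate 1, P14 replicate 2 or P14 replicate 4, and with replicate number blocked.

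Of 27 potassium channel genes tested, 2 fell (7.41%), Abcc9 and Kcnj12, and the median was −0.48 (0.30 with library size alone). None fell without P14 replicate 4 or with the off-gene share as a covariate. Relative to the CM markers 6 rose and none fell, in a list whose genes had a median length of 115 kb against 28.2 kb for all genes tested. Kcnd2, a pore subunit of the transient outward current, was at 659, 485, 490.5 and 341 CPM at P7 and at 677, 612 and 419 CPM at P14 (0.20 ± 0.55, edgeR adjusted p = 0.926). Kcnd2 was at 2.53 relative to the CM markers (adjusted p = 0.0026). Kcnd3, another pore subunit of that current, was at 59.8, 167, 102 and 159.6 CPM and at 681, 305 and 133 CPM (1.61 ± 0.72, edgeR adjusted p = 0.276). Kcnd3 was at 3.63 relative to the CM markers (adjusted p = 0.0011). In both the days overlapped on the CPM scale. Of 16 sodium and pacemaker channel genes 2 fell, among them Fgf13, a regulator of the cardiac sodium channel (−3.11 ± 0.44, edgeR adjusted p = 9.68e-10).

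RNAs that reside in the nucleus (5 of 20 tested) and genes of the splicing machinery (38 of 94) were among those that fell. Malat1, a noncoding RNA of nuclear speckles, was at 101230, 53406, 39122 and 29995 CPM at P7 and at 6289.7, 1478 and 3295 CPM at P14. It was 15.2-fold lower (−3.92 ± 0.23, edgeR adjusted p = 2.67e-61), remained lower relative to the CM markers (−1.74 ± 0.17, adjusted p = 2.53e-17), and kept its call with the off-gene share as a covariate and without any single library. Neat1, the scaffold of paraspeckles, was at 261 to 459.5 CPM at P7 and at 0.655 to 54.2 CPM at P14 (−3.39 ± 0.70, edgeR adjusted p = 0.000179). Neat1 was at −1.17 relative to the CM markers (adjusted p = 0.355). Of the 94 genes of SR proteins, hnRNPs and the spliceosome none rose, and the list had a median of −3.42, or −3.09 with genes unread at P14 set to their bound. Relative to the CM markers the median was −1.04 against 1.41 for all genes. The number that fell was 26 without P14 replicate 4 and 13 with the off-gene share as a covariate. In control nuclei 30 of the 94 fell, with a median of −2.54. Pnisr, an SR-related protein, was at 3019, 5313, 3773 and 2468 CPM at P7 and at 339.9, 181 and 216 CPM at P14 (−3.89 ± 0.46, edgeR adjusted p = 4.64e-14). Pnisr was at −1.61 relative to the CM markers (adjusted p = 0.0282). Son, which organizes nuclear speckles, was at 1982, 2423, 1983 and 1086 CPM and at 115, 70.6 and 132 CPM (−4.14 ± 0.52, edgeR adjusted p = 3.04e-12). Son was at −1.77 relative to the CM markers (adjusted p = 0.0466). The relative calls of Pnisr and Son were each lost in 6 of 7 fits that left out a library. Rbm25 fell by CPM (−2.46 ± 0.34, edgeR adjusted p = 4.29e-10) and was at −0.20 relative to the CM markers. Rbm20, the splicing regulator of Ttn, was at 2392 to 5661 CPM at P7 and at 625 to 1496 CPM at P14 (−2.11 ± 0.39, edgeR adjusted p = 1.17e-05), and its sign turned relative to the CM markers (0.10).

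Among 30 cardiac transcription factors 9 fell (4 without P14 replicate 3, and 1 with the off-gene share as a covariate). That one was Gata6, a zinc-finger factor of heart development, at 252, 247, 219 and 115 CPM at P7 and at 1.41, 0 and 0 CPM at P14. With 2 reads left over the P14 libraries, the ratio of P7 to P14 was 481 (95% counting interval 133 to 3975, which covers counting error only). The fall also passed relative to the CM markers (edgeR adjusted p = 0.00526). Gata6 shares its locus with the antisense gene Gata6os. Hopx, a homeodomain protein of CM differentiation, went from 137, 86.4, 44.7 and 23.2 CPM to no read, at least 120.3-fold lower. Mef2a, a factor that acts on contractile genes, was at 124 to 575 CPM at P7 and at 1.97 to 42.9 CPM at P14. It fell by CPM (−3.70 ± 0.79, edgeR adjusted p = 0.000404) and did not pass relative to the CM markers.

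In metabolism 3 lists were tested, of which 8.82% to 10.5% of the genes fell, against 3% of all genes tested. Of 76 genes of oxidative phosphorylation 8 fell (10.5%, median −2.65, or −2.25 at the bounds, against −0.61 and −0.48 for all genes). It was 4 without P14 replicate 3 and none with the off-gene share as a covariate. Sdha, a subunit of complex II, was at 116, 18.2, 53.7 and 7.73 CPM at P7 and had no read at P14, at least 86.6-fold lower. Cox8a, a subunit of complex IV, was at 169, 53.9, 28.9 and 33.0 CPM and likewise had no read at P14, at least 125-fold lower. Of 34 genes of fatty acid uptake and oxidation 3 fell (8.82%), 1 without P14 replicate 4 and none with the off-gene share as a covariate. They were led by Fabp3, the heart fatty acid-binding protein. Fabp3 was at 1358, 459, 416 and 132 CPM at P7 and at 13.4, 51.7 and 28.2 CPM at P14 (−4.24 ± 0.70, edgeR adjusted p = 5.98e-07). It was at −1.61 relative to the CM markers (adjusted p = 0.242). Of 32 genes of glycolysis and glycogen 3 fell (9.38%). Of these Eno3, the muscle enolase, had no read at P14 and was at least 203-fold lower. The calls of the other two, Pdhb and Pygm, were lost in 4 and 5 of 7 fits that left out a library and with replicate number blocked. Of 68 cytosolic ribosomal protein genes 1 fell (1.47%, median −2.82, or −1.59 with genes unread at P14 set to their bound). Of 63 mitochondrial ribosomal protein genes 1 fell as well (1.59%, median −2.17, or −1.64 at the bounds). Of 8 mitochondrially encoded genes 1 fell (12.5%), and none with replicate number blocked.

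**Figure D3:**
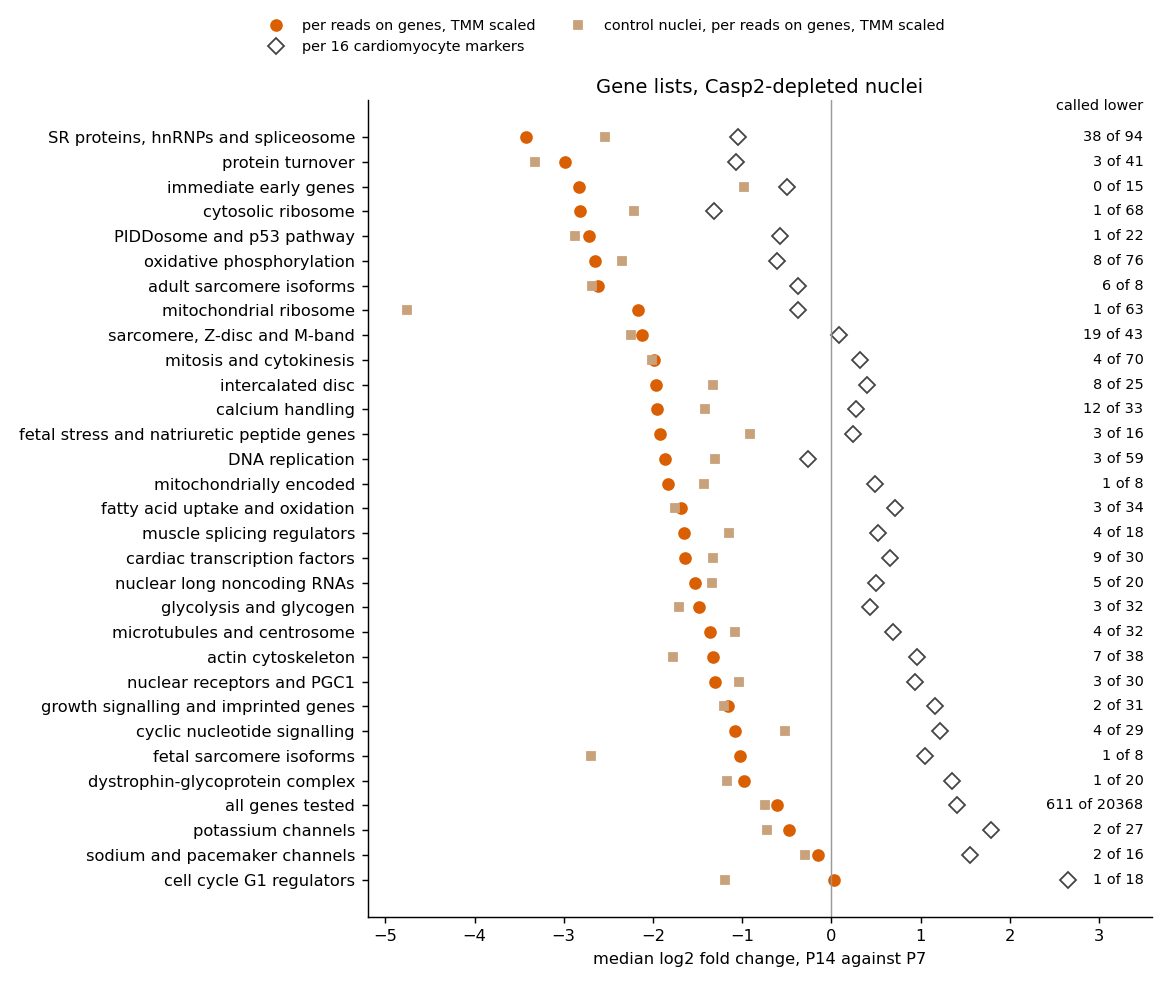
Median log2 change from P7 to P14 of each gene list in depleted nuclei, as TMM-scaled CPM (circles) and relative to CM marker reads (diamonds), and in control nuclei as TMM-scaled CPM (squares), with all genes tested as a row of their own and the number called lower at the right. The list of SR proteins, hnRNPs and spliceosome lies at −3.42 by CPM and at −1.04 relative to the CM markers, and the potassium channels at −0.48 and 1.79.

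Genes of the cell cycle and of the PIDDosome were read at low levels. Lig1, the DNA ligase that joins Okazaki fragments, was at 177, 350.4, 274 and 191 CPM at P7 and had no read in the 3 P14 libraries, at least 359-fold lower (edgeR adjusted p = 1.25e-11), also relative to the CM markers (adjusted p = 0.0015). Of 59 genes of DNA replication 3 fell (5.08%, against 3% of all genes tested), namely Lig1, the clamp loader subunit Rfc1 and the helicase subunit Mcm3. Without P7 replicate 3 the number was 2. Rfc1 was at 207 to 481 CPM at P7 and at 33.8, 0 and 1.31 CPM at P14. Mcm3 was at 30.1 to 91.4 CPM at P7 and had no read at P14, and its call was lost in 5 of 7 fits that left out a library. Of 70 genes of mitosis and cytokinesis 4 fell (5.71%, and 2 genes without P14 replicate 3). Among them the kinesin Kif20b was at 118, 114, 156 and 59.8 CPM at P7 and without a read at P14, at least 171-fold lower. Mki67, the proliferation marker, was at 112, 88.8, 19.3 and 45.7 CPM at P7 and without a read at P14, at least 107-fold lower, and its call was lost without P14 replicate 3 or 4. Of 18 regulators of G1 1 fell (5.56%, and none without P7 replicate 2) and the median was 0.03. In the list of the PIDDosome and p53 pathway 1 of 22 genes fell (4.55%, and none without P14 replicate 4). This was Mdm4, an inhibitor of p53, from 249, 141, 128 and 75.9 CPM to 24.7, 8.83 and 0 CPM (−3.73 ± 0.90, edgeR adjusted p = 0.00292), and its call was lost without P14 replicate 4. Cradd was at 144 to 193 CPM at P7 and at 5.24 to 85.7 CPM at P14 (edgeR adjusted p = 0.346). Ankrd26 was at 26.0 to 117 CPM and at 0 to 34.7 CPM (edgeR adjusted p = 0.186). Mdm2, the ubiquitin ligase of p53, was at 24.6 to 81.7 CPM and at 0 to 47.2 CPM (edgeR adjusted p = 0.733). Cdkn1a, the cell cycle inhibitor p21, had 1 read at P7 and none at P14, and Pidd1 and Trp53 had none at P14, so that a change in these genes was not detectable at this depth.

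The 144 genes that fell to no read at P14 included 3 outside these lists that also differed between the genotypes. Cdc37l1, a co-chaperone of HSP90, was at 606, 174, 499 and 221 CPM at P7 and at least 615-fold lower at P14 (edgeR adjusted p = 1.21e-20). Spaca6, a membrane protein of sperm, was at 263, 147, 175 and 49.9 CPM at P7 and at least 259-fold lower at P14. Pdgfa, a growth factor for mesenchymal cells, was at 199, 163, 118 and 36.6 CPM at P7 and at least 206-fold lower at P14. Cdc37l1 overlaps Gm10136 and Ak3. These 3 genes also fell relative to the CM markers, where the call of Pdgfa was lost without P7 replicate 1. Actb, the β-actin of the actin cytoskeleton list, kept 2 reads at P14. It was at 670.3, 96.7, 110.1 and 89.99 CPM at P7 and at 0, 1.26 and 0 CPM at P14. The ratio of P7 to P14 was 666 (95% counting interval 184 to 5501), and its relative call was also lost without P7 replicate 1.

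The 2 genes that rose are noncoding RNAs without a known role, and both calls were lost in 6 of 7 fits that left out a library and with replicate number blocked, where no gene rose. Gm28494 was at 26.2, 26.2, 26.8 and 3.52 CPM at P7 and at 138, 181 and 234 CPM at P14 (3.15 ± 0.94, edgeR adjusted p = 0.0326). Per kilobase it stood at 1.9 times the mean density of the olfactory and vomeronasal receptor genes at P14. Gm12708, named here after its values were seen, had no read at P7 and 0, 99.0 and 102 CPM at P14 (edgeR adjusted p = 0.038).

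Relative to the CM markers, 758 genes rose, and long genes were frequent among them. Of the 758, 524 spanned 100 kb or more (69.1%, against 15.4% of all genes tested), and 302 of the 619 tested genes of 300 kb or more were included. The median length was 218 kb, against 28.2 kb for all genes tested. By length class the median log2 change on the CPM scale was −1.46 below 10 kb, −1.19 from 10 to 30 kb, −0.51 from 30 to 100 kb, −0.10 from 100 to 300 kb and 0.30 above. Genes of 300 kb or more took 17.8% ± 1.01 of the reads at P7 and 23.8% ± 0.250 at P14 (exact permutation test, two-sided, p = 0.0571). At P14, 441 of the 752 risen genes with a known length stood below 3 times the read density of olfactory and vomeronasal receptor genes. The other 311 stood at or above it. The share of all tested genes below this density was not counted, so the 441 cannot be read as a trait of the risen genes. The number that rose was 136, 155, 218, 307 and 385 without P7 replicates 1, 2 and 3 and P14 replicates 3 and 4, 336 with replicate number blocked, and 106 with the geometric mean of the markers in place of their sum.

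**Figure D4:**
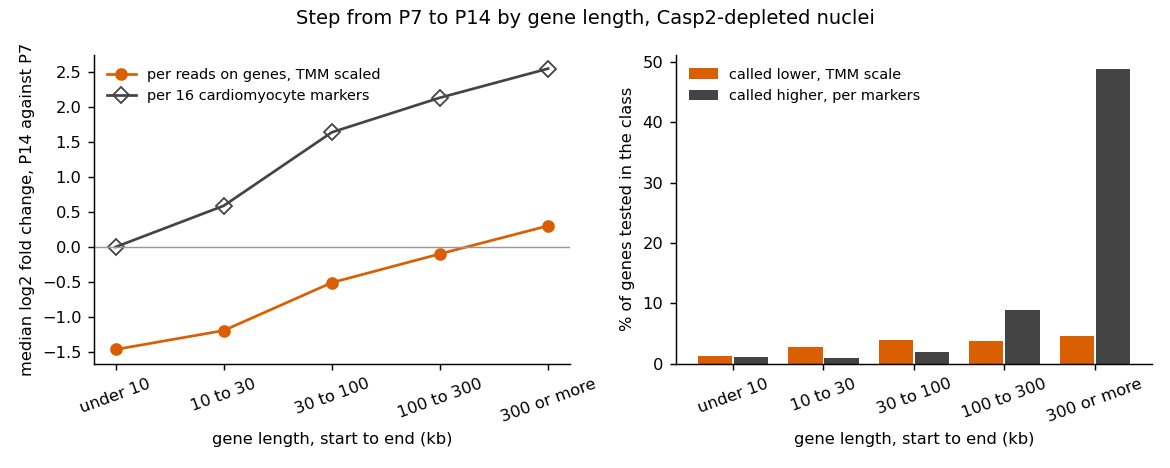
Left, median log2 change from P7 to P14 in depleted nuclei for 5 classes of gene length (kb) on both scales; right, the percentage of tested genes in each class that fell on the CPM scale or rose relative to the CM markers. The medians go from −1.46 below 10 kb to 0.30 at 300 kb and above on the CPM scale.

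Among the abundant genes that rose only on the relative scale, Pde4d, a phosphodiesterase that breaks down cyclic AMP near the calcium release channel, was at 4061, 5075, 3101 and 2622 CPM at P7 and at 7567, 2339 and 2131 CPM at P14 (0.11 ± 0.35, edgeR adjusted p = 0.943). Pde4d was at 2.22 relative to the CM markers (adjusted p = 8.12e-09), and its density was 8.87 times that of the receptor genes. Fhl2, a LIM protein of the sarcomere, was at 2574 to 8349 CPM and at 1135 to 7307 CPM, with −0.54 by CPM and 1.51 relative to the CM markers, where the sign turned (adjusted p = 0.000476). The relative call of Fhl2 was lost without P14 replicate 2. In both genes P14 replicate 2 was the highest of the P14 libraries. For every 100 reads on Ttn there were 15.7 ± 4.27 Pde4d reads (SD, n = 4) at P7 and 63.4 ± 13.2 (SD, n = 3) at P14. The days did not overlap in this ratio (exact permutation test, two-sided, p = 0.0571).

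On the CPM scale 1 marker of another cell type fell and none rose. This was Abcc9 of the mural list, which CMs also express, and its call was lost without P14 replicate 2 or 4. Relative to the CM markers none fell, and 1 endothelial, 1 macrophage and leukocyte and 1 Schwann and neuronal marker rose. The summed level of 12 fibroblast markers was 148 to 240.1 CPM at P7 and 263 to 509 CPM at P14. That of 12 endothelial markers was 194 to 632 and 669 to 702 CPM, and that of 10 Schwann and neuronal markers 30.9 to 162 and 238 to 501 CPM. The sum of 14 adipocyte and skeletal muscle markers was higher at P14 as well (72.8 to 131 and 158 to 188 CPM), while that of 9 mural markers was lower (335 to 562 and 183 to 319 CPM). The sums of 9 erythroid and 8 epicardial and mesothelial markers overlapped, at 25.6 to 113 and 48.4 to 138 CPM at P7 and at 11.1 to 171 and 33.8 to 107.9 CPM at P14. In the fibroblast, endothelial, Schwann and neuronal, adipocyte and skeletal muscle, and mural sums the days did not overlap (exact permutation tests, two-sided, p = 0.0571 each). Without the 10 most-read genes of each library, the fibroblast sums overlapped (188 to 297 CPM at P7 and 280 to 540 at P14). The endothelial sums then overlapped as well (245 to 780 and 709 to 780 CPM), while the other sums of this group stayed apart. Of 12 macrophage and leukocyte markers 7 had no read in the 7 libraries, among them Cd68, Cd74 and Lyz2, and the sum of the rest overlapped (67.4 to 308 and 249.8 to 482 CPM, exact permutation p = 0.114). All of these sums stayed far below the 18081 to 30647 CPM of the CM markers at P14, and their part in the changes was not tested.

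The same step in control nuclei gave 392 falls (1.92%) and 2 rises (0.00982%). The 2 genotypes shared 230 falling genes, which were 37.6% of the calls in depleted nuclei and 58.7% of those in control nuclei. Of the 611, 595 had a negative log2 change in control nuclei too, where the median of all genes tested was −0.75. The share of all tested genes with a negative change there was not counted, so the 595 cannot be read as a trait of the 611. In control nuclei Ankrd1 changed by −5.01, Tnnt2 by −2.50, Ttn by −2.24 and Ryr2 by −1.35, and the Ankrd1 step did not pass the test of a difference (−0.84 ± 0.56, edgeR adjusted p = 0.701). The step differed between the genotypes for 7 genes, 5 (0.0245%) with a lower and 2 (0.00982%) with a higher value in depleted nuclei.

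**Figure D5:**
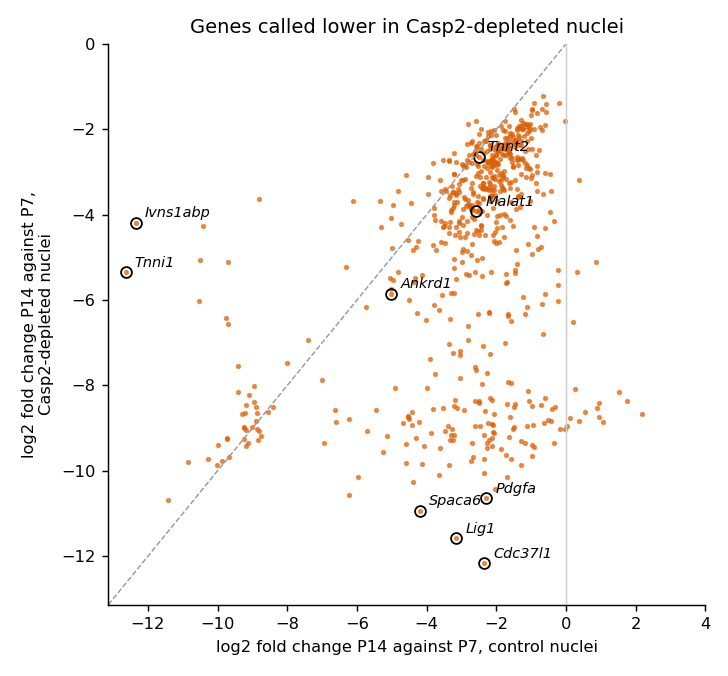
Log2 change from P7 to P14 in control nuclei (horizontal) and in Casp2-depleted nuclei (vertical), for the 611 genes that fell in depleted nuclei, with a dashed line of equal change. Fitted values of genes without a read at P14 depend on the prior count and are no bounds. Of the 611 genes that fell in depleted nuclei, 595 lie below 0 in control nuclei too, where the median of all genes tested was −0.75.

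Of the 7, Cdc37l1 and Ivns1abp held their difference without any single library. That of Cdc37l1 was −0.15 with all 24 libraries (adjusted p = 1), and that of Ivns1abp did not pass with the filterByExpr filter on low counts (adjusted p = 0.108). Cdc37l1 was at 544, 1100.4, 647 and 629 CPM in control nuclei at P7 and at 391, 37.5 and 0 CPM at P14, whereas the 3 depleted P14 libraries had no read (edgeR adjusted p of the difference 8.26e-10). The order was the opposite for Ivns1abp, an actin-associated kelch protein. It was at 844, 419.9, 318 and 120.0 CPM in control nuclei at P7 and had no read at P14. In depleted nuclei it was at 603, 109, 109 and 49.2 CPM and at 12.7, 0 and 22.9 CPM (adjusted p of the difference 0.000255). Tnni1 was at 691, 564, 357 and 464 CPM in control nuclei at P7 and had no read at P14, whereas 43.7, 3.15 and 0.655 CPM were left in depleted nuclei (adjusted p = 2.78e-05). The difference was lost without depleted P14 replicate 2, the library with the most Tnni1 (adjusted p = 0.238). Lig1 was at 94.6, 357, 129.6 and 147 CPM and at 61.5, 0 and 0 CPM in control nuclei (adjusted p = 0.00125), and the difference was lost without control P14 replicate 1, which held all of its control P14 reads (adjusted p = 1). Malat1 fell further in depleted nuclei, by 1.35 ± 0.28 on the log2 scale (adjusted p = 0.00409). In control nuclei it was at 48792 to 116166 CPM at P7 and at 2551 to 28519 CPM at P14. Without control P14 replicate 1 the difference was 0.17. The Malat1 call was lost in 5 of 14 fits that left out a library, and also with filterByExpr (adjusted p = 0.551), all 24 libraries (0.347), DESeq2 (0.658) and the off-gene share as a covariate (0.149). None of the 7 differences passed with limma-voom. Pdgfa (adjusted p = 0.0155) and Spaca6 (adjusted p = 0.047) lost their calls in 7 and 11 of 14 fits that left out a library, and Spaca6 turned to 0.45 without control P14 replicate 1. With replicate number blocked, Cdc37l1, Tnni1 and Ivns1abp kept their calls and Lig1, Malat1, Pdgfa and Spaca6 did not.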

How the data were processed

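The authors prepared QuantSeq 3′ FWD libraries with the low-input protocol, trimmed the reads with cutadapt 4.0, aligned them to GRCm39 (Ensembl 108) with STAR 2.6.1e and deposited, for each library, raw counts per gene from HTSeq 2.0.3 over exons and introns. Depth was 976714 to 2924097 reads on genes in the 7 libraries. Rows that name no gene were kept out of library sizes and tests and served for the off-gene share. Gene names came from GENCODE vM39 (56236 of 56923 identifiers).

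One fit of 6 group means over the 21 libraries that the study kept was made with edgeR 4.0.16 (TMM factors, quasi-likelihood F-test, R 4.3.3), for genes with at least 10 reads in all and a read in at least 3 libraries, with Benjamini-Hochberg adjustment over 20368 genes. The study used limma; it was an alternative here, as were DESeq2 1.42.0, other scalings and filters, a replicate block and leaving out each library. The scale relative to 16 CM markers was added after the data were seen. Library measures were compared by exact permutation of the 7 libraries (35 groupings, smallest two-sided p 0.0571). The edgeR p-values rest on the spread between pools of hearts within the 6 groups, estimated over the 21 libraries and pooled across genes. Those of the clearest falls are smaller than their log2 change and SE would give on the 15 residual degrees of freedom. They therefore do not measure each gene's own spread between libraries. The SE of a log2 change was derived from the same test. The p-values and the SE can therefore be smaller than the spread of the 7 compared libraries would give. Same-numbered P7 and P14 libraries did not deviate together (correlations 0.026, 0.019 and −0.007), so they were not taken as pairs in the fit. The deposited count files call the same number a batch. Where a single gene described above loses its CPM-scale call with it as a block, this is stated beside the result. Most list counts above are given without the block.

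Named genes were the 12 with the smallest p in each direction among calls without overlap, the 6 with the largest change, up to 4 calls of each list, a fixed set with the PIDDosome and sarcomere isoforms, all genes whose steps differ between genotypes, and the 6 most abundant uncalled genes, of which 1 is not reported here. The genes on the relative scale, Gm12708, and the libraries compared, like all members and the 30 gene lists, were chosen with earlier results of these data known. Genes without a read at P14 were bounded at 3 reads over the group, which covers counting error only. Promoter sequences were from RefSeq (GRCm38.p6), placed on GRCm39 by exact match.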

Additional observations from a re-analysis of the deposited data

Results flagged for a closer look

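In 16 of 138 values tested among the 4 depleted P7 libraries, 1 library lay far from the other 3 (Dixon's test at the 95% level). Chance gives about 1 in 20 for normally distributed values, but the CPM were not log-transformed and the values share libraries. A gene with reads in only 1 of the 4 libraries is flagged by construction. The 16 are therefore no measure of an excess over chance. Replicate 1, the library with the most reads on genes and the smallest off-gene share, was the highest in 11 of the 16. It held 4677 CPM of ENSMUSG00000115610, 1000.1 of Qki, 670 of Actb, 2079 of Pde4b, 4031 of mt-Rnr2, 348 of Myl3, 1224 of Actn2, 1027 of Atp2a2 and 603 of Ivns1abp, and, from a few reads, 10.3 of Myl7 and 0.467 of Cdkn1a, both of which were 0 in the others. Replicate 2 was the highest for Plagl1 (1820 CPM) and Daam1 (1439 CPM) and replicate 3 for Pidd1 (6.19 CPM, 0 in the others). Replicate 4 was the lowest for Gm28494 (3.52 CPM) and Pygm (16.9 CPM).

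The change from P7 to P14 differed between the genotypes, by a test of the difference itself, for 7 genes. The fitted log2 difference, depleted minus control, was −9.82 for Cdc37l1, −8.43 for Lig1, −8.35 for Pdgfa, −6.74 for Spaca6 and −1.35 for Malat1, and 7.29 for Tnni1 and 8.16 for Ivns1abp. Except for Malat1, a group without a read enters each of these values, which therefore depend on the prior count and are no bounds.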

How the results depend on the processing

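The number of genes that fell in depleted nuclei, 611, was 401 with the filterByExpr filter, 166 with all 24 libraries, 213 with library size alone, 1257 with DESeq2 (564 shared), 795 and 607 with limma-voom (TMM and quantile; 269 and 252 shared), 127 with the off-gene share as a covariate, and 306 to 672 when single libraries were left out. With the replicate number as a block it was 490 (481 shared). By list, the block gave 32 in place of 38 for SR proteins, hnRNPs and spliceosome and 18 in place of 19 for sarcomere, Z-disc and M-band. It gave 10 in place of 12 for calcium handling and 7 in place of 9 for cardiac transcription factors. Oxidative phosphorylation and intercalated disc each went from 8 to 7, adult sarcomere isoforms from 6 to 5 and fatty acid uptake and oxidation from 3 to 2. The number that rose, 2, was 1 with filterByExpr, 0 with all 24 libraries, with the block and with the off-gene covariate, 25 with library size alone, 59 with DESeq2, 35 and 207 with limma-voom (TMM and quantile), 18 with only the compared groups, and 0 to 4 without single libraries. The number that differed between genotypes, 7, was 2 with filterByExpr, 3 with the replicate block, 12 with DESeq2 size factors, 292 with DESeq2 and 4 to 74 without single libraries (74 without control P14 replicate 2, 47 without depleted P14 replicate 2). In control nuclei the 394 calls became 214 with filterByExpr, 51 with all 24 libraries, 241 with DESeq2 size factors, 123 with library size alone, 1003 with DESeq2, 1150 and 702 with limma-voom, 32 with the off-gene covariate and 182 to 508 without single libraries. Relative to the CM markers, 25 falls became 6 with the geometric mean and 10 to 29 without single libraries, and 758 rises became 106 with the geometric mean, 336 with the replicate block and 136 to 893. Directions turned for Ttn (0.80) and Rbm25 (0.25) with limma-voom quantile scaling, for Rbm24 (0.25), Rbpms (0.14), mt-Rnr2 (0.40) and Actn2 (0.10) with the off-gene covariate, for the potassium channel median (0.30) with library size alone, and for the differences between genotypes of Malat1 (−1.98 to 0.17 without single libraries) and Spaca6 (−7.33 to 0.45), both without control P14 replicate 1. The variance trend of limma-voom fell below 0 at the highest counts (lowest fitted value −0.253), so its weights, and its calls for the most-read genes, are void. For the other turns and shifts the cause was not tested. Of 96 named calls, 60 held without any single library, 81 with the replicate block and 34 with the off-gene covariate.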

Other observations

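The depleted P14 library that the study set aside, replicate 1, held 1441122 reads on genes but 4285 detected genes, against 9428 to 12327 in the other 3, and 64.1% of its uniquely mapped reads lay on no gene.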
